A study of Mus musculus and Rattus norvegicus with 37 samples.

Results

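The NRF2 antioxidant response was followed through 10 genes, Nfe2l2, Keap1, Gclc, Gclm, Gsr, Txnrd1, Srxn1, Nqo1, Hmox1 and Osgin1, which were matched by symbol among 48440 mouse and 32750 rat entries. All 10 were listed in each of the 4 tables, and the rule that picked them was their symbol alone. RNA-seq had been performed on the livers of 21 mice and 16 rats.

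All mice were females, of the C57BL/6J strain or bred on it. They received 1 subcutaneous injection at ZT 3, and their livers were taken non-fasted on day 7. LNA29 is a pair of locked nucleic acid inhibitors, 1 against miR-29a-3p and 1 against miR-29b-3p and miR-29c-3p, given at 20 mg/kg each; control mice received saline. The WT/Floxed group pooled C57BL/6J wild type mice on chow aged 9 to 11 weeks with floxed littermates of the knockout aged 15 to 20 weeks. WT or floxed origin, called background below, and age thus differed together. In this group LNA29 had been given to 8 mice (4 WT and 4 floxed) and saline to 5 (3 WT and 2 floxed, after the authors left out 1 floxed mouse). Mice labelled L-Sirt1 KO, with a Sirt1 deletion driven in the liver only and aged 15 to 20 weeks, received LNA29 (n = 4) or saline (n = 4). Male fa/fa Zucker Fatty rats (ZFR), which carry a mutated leptin receptor, were compared with Zucker Lean rats (ZLR) at 5.5 months, both on chow (n = 4 each). Other male ZFR, aged 3 months, had received BT2, an inhibitor of the kinase of branched-chain ketoacid dehydrogenase, at 20 mg/kg intraperitoneally each day for 1 week or DMSO vehicle (n = 4 each). All rat livers were taken in the fed state.

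Depth was estimated at 42.6 to 78 M reads in mouse libraries. In rats it was 0.189 to 58.5 M reads, and 6 of the 16 libraries (3 in each rat table) were under 1 M reads, where 1 read was worth up to 10.5 normalized counts (the unit of every level below: estimated gene counts scaled by the authors to a common depth within a table). Sirt1 in the libraries labelled L-Sirt1 KO was at 562 ± 26.0 with LNA29 and 586 ± 30.6 with saline (SD, n = 4 each). In WT/Floxed mice, whose table was scaled separately, it was close to these, at 607 ± 61.2 (n = 8) and 590.5 ± 81.2 (n = 5). The difference between genotypes was not tested. A value over the whole gene does not show a deletion of part of it where the rest of the transcript is still counted, so these levels do not settle the genotype. The collagen gene Col3a1, a known miR-29 target, rose with LNA29 by 2.31-fold in WT/Floxed mice (limma, adjusted p = 0.0162) and 3.35-fold where the label reads L-Sirt1 KO (adjusted p = 0.00783). Col1a1 rose by 1.94-fold (adjusted p = 0.123) and 3.23-fold (adjusted p = 0.00783).

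NRF2, the product of Nfe2l2, is a transcription factor that KEAP1 holds in the cytoplasm and hands to the proteasome. When electrophiles or oxidants modify cysteines of KEAP1, NRF2 escapes, pairs with small MAF proteins and binds antioxidant response elements near genes of glutathione synthesis, thioredoxin recycling, quinone reduction and heme breakdown. In the liver this programme is known for its part in detoxification.

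The 3 miRNAs that LNA29 targets are shown first because the match of their shared seed, in capitals (bases 2 to 8), was searched in 3′ UTRs. Shorter or other kinds of match were not searched. Sequences are mature forms from RefSeq (GRCm38.p6).
mmu-miR-29a-3p: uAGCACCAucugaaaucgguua
mmu-miR-29b-3p: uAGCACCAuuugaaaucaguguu
mmu-miR-29c-3p: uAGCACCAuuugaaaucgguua

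The DNA match of this seed, TGGTGCT, was searched on the sense strand of the annotated 3′ UTRs of protein-coding transcripts (GENCODE vM21, GRCm38). Of the 10 genes, 2 held it, Osgin1 and Srxn1, and 8 did not. It was present in 2783 of 20416 genes with a 3′ UTR (13.6%). Each site is printed with the match in capitals. The Osgin1 site lies at chr8:119445629-119445650 (+), exonic and in 1 of the 2 annotated 3′ UTRs of the gene, which spans chr8:119425882-119446257. The Srxn1 site lies at chr2:152111142-152111163 (+), in the 3′ UTR of a gene that spans chr2:152105524-152111376.
Osgin1: ctttggggtctccaTGGTGCTg
Srxn1: aataagatgcatcgTGGTGCTg

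The core of the antioxidant response element, TGACNNNGC, was searched on both strands of the 300 bases around each RefSeq start site (250 before it and 50 after it). Windows were held for 7 of the 10 genes, and Gclc, Hmox1 and Gsr had none. The letters were found in Nfe2l2, Srxn1, Gclm and 1 of 3 Txnrd1 windows, and not in those of Nqo1, Osgin1 and Keap1. Of all 27025 genes with a window 14% held them, and of all 32851 windows 12.4%. An element farther from the start site would be missed, so a window without a match does not show that the gene lacks one. The 4 stretches are shown 5′ to 3′ on the strand of the gene, with the match in capitals. Only that of Nfe2l2 reads TGACNNNGC on this strand; the other 3 read it on the opposite strand. They lie at chr2:75704885-75704913 (Nfe2l2, -), chr2:152105542-152105570 (Srxn1, +), chr3:122245413-122245441 (Gclm, +) and chr10:82859104-82859132 (Txnrd1, +).
Nfe2l2: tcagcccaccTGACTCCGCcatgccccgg
Srxn1: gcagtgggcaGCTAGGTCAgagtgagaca
Gclm: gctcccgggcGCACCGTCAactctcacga
Txnrd1: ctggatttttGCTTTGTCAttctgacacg

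In saline-treated WT/Floxed livers all 10 genes were expressed. Per kb of annotated exons, the highest level was that of Gclc, the catalytic subunit of glutamate-cysteine ligase, at 4864 ± 509 normalized counts per kb (SD, n = 5). Osgin1, an oxidative stress-induced growth inhibitor, followed at 3890 ± 970, a range that overlapped with that of Gclc. The lowest levels per kb were those of Hmox1 at 529 ± 57.2 and Nqo1 at 512 ± 85.3, which overlapped too. Keap1 shares 510 exonic bases (10.9%) with the antisense gene Gm16754. Gclm shares 296 bases with Gm17494 on the opposite strand and 244 with the pseudogene Gm6061 on the same strand. Whether the counting used strand is not given in the sources used here, so reads of the opposite-strand overlaps may be split. Reads of the overlap with Gm6061 may be split with or without the use of strand.

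**Figure D1:**
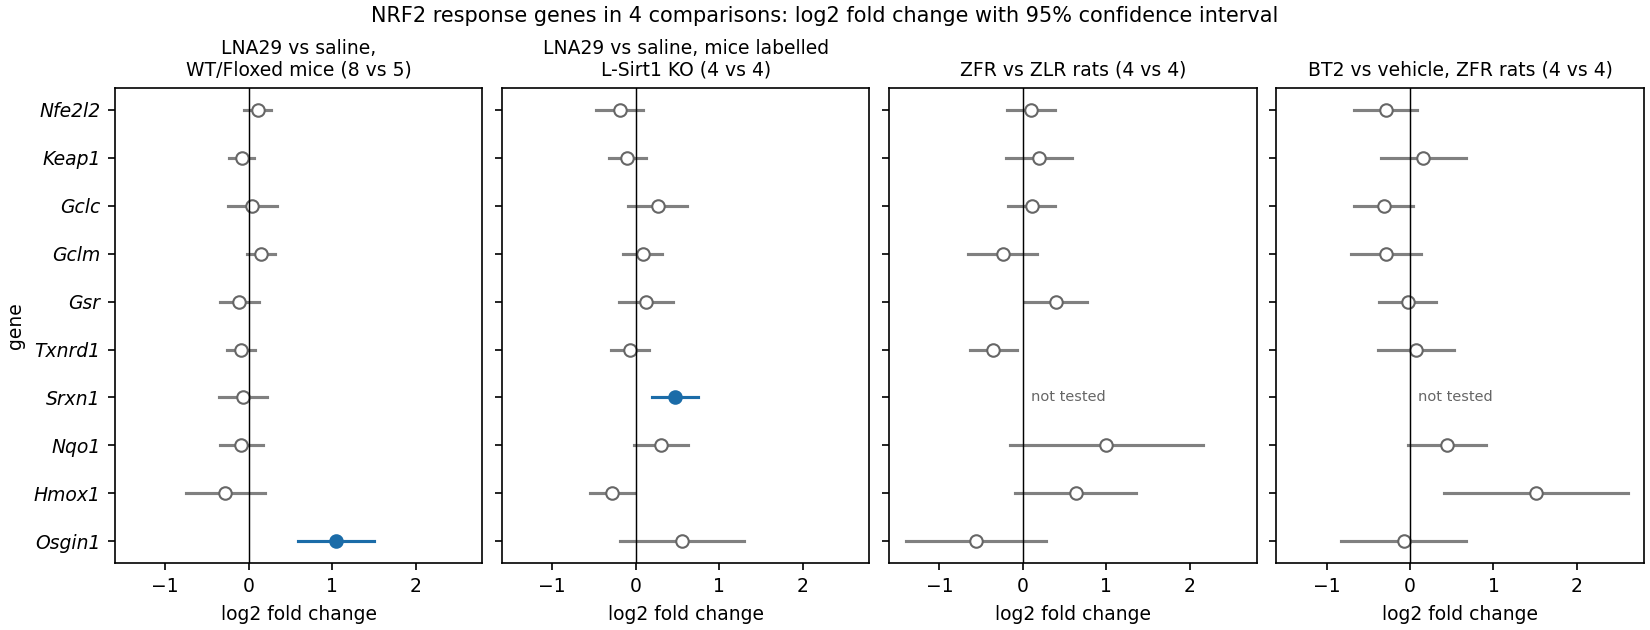
Log2 fold change (x axis) of the 10 genes (y axis) in the 4 comparisons, 1 panel each, with limma's 95% confidence interval as a bar; filled blue points passed the criteria of their comparison. Osgin1 in WT/Floxed mice, at 1.04, and Srxn1 in mice labelled L-Sirt1 KO, at 0.47, are the filled points, and the widest intervals are those of Nqo1, Hmox1 and Osgin1 in rats.

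The first comparison asked what loss of miR-29 does to the liver transcriptome of WT/Floxed mice. Of the 10 genes, Osgin1 alone passed the criteria (limma, p under 0.05, adjusted p under 0.2, mean above 50, fold above 1.2), and it rose 2.09-fold with LNA29. Its normalized counts in the 8 LNA29-treated livers were 13590 at the lowest, 21440 at the median and 34320 at the highest. In the 5 saline-treated livers they were 6883, 13060, 12450, 10930 and 8680. Every LNA29-treated liver lay above every saline-treated one, the narrowest gap being that between 13590 and 13060. Means were 21720 ± 6786 (SD, n = 8) and 10400 ± 2593 (n = 5), with a log2 fold change of 1.04 (SE 0.21, 95% confidence interval 0.59 to 1.496, adjusted p = 0.0267, limma). The exact two-sided permutation p was 0.00233, where 0.000777 is the smallest that 8 against 5 allows. Among 15811 genes tested, 2.42% were called higher, 1.93% were called lower and 1.51% had groups that did not overlap.

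The rise of Osgin1 was seen in each part of the group. The log2 difference was 0.94 among WT mice (4 against 3) and 1.12 among floxed mice (4 against 2). Within the 3 sequencing flow cells named in the labels it was 0.69 (3 against 2), 1.17 (3 against 1) and 1.13 (2 against 2). Leaving out single libraries gave values from 0.90 to 1.13, all called. Of 345 genes called higher here that had an annotated 3′ UTR, 40.3% held the miR-29 seed match, against 8% of 275 called lower and 16.1% of 13116 tested; 3′ UTR lengths were not matched between these groups.

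The other 9 genes stayed within log2 fold changes of -0.28 to 0.15, and none passed. Nfe2l2 itself was 3970 ± 302 with LNA29 (n = 8) and 3684 ± 335 with saline (n = 5), a log2 fold change of 0.11 (95% confidence interval -0.05 to 0.27, adjusted p = 0.595, limma). Its inhibitor Keap1 was 3267 ± 280.5 and 3453 ± 240 (log2 -0.08, interval -0.23 to 0.07). The intervals of both exclude a change as large as that of Osgin1.

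The glutathione genes were also close between groups. Gclc had a log2 fold change of 0.05 (interval -0.24 to 0.33). Gclm, the modifier subunit that raises the affinity of the ligase, had 13550 ± 1546 with LNA29 and 12160 ± 631 with saline, a log2 fold change of 0.15 (interval -0.02 to 0.32, adjusted p = 0.45, limma), the next highest after Osgin1. Gsr, which recycles oxidized glutathione with NADPH, had a value of -0.11 (interval -0.35 to 0.12).

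Txnrd1, the cytosolic thioredoxin reductase, had a log2 fold change of -0.09 (interval -0.26 to 0.08), and Srxn1, sulfiredoxin, which repairs overoxidized peroxiredoxins, one of -0.07 (interval -0.35 to 0.22). Nqo1, a quinone reductase often read as an NRF2 marker, was at 749 ± 114 with LNA29 and 795.5 ± 132 with saline (log2 -0.09, interval -0.34 to 0.17). Hmox1, the inducible heme oxygenase, ranged from 523 to 1523 with LNA29 and from 805 to 1082 with saline (log2 -0.28, interval -0.75 to 0.20, adjusted p = 0.66, limma). Over the 10 genes the median log2 fold change was -0.07, and it was 0.00169 over all genes tested.

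In mice labelled L-Sirt1 KO the same contrast was made. Srxn1 alone passed the criteria and was 1.38-fold higher with LNA29. Its values were 3115, 2558, 2973 and 2421 in LNA29-treated livers and 1863, 2426, 1786 and 1922 in saline-treated ones. The groups touched, since the lowest treated liver was just under the highest control. Means were 2767 ± 330 and 1999 ± 290 (SD, n = 4 each), with a log2 fold change of 0.47 (SE 0.12, 95% confidence interval 0.20 to 0.75, adjusted p = 0.189, limma). The exact two-sided permutation p was 0.0571, and 0.0286 is the smallest that 4 against 4 allows. Within the flow cells the log2 difference was 0.60 (2 livers against 1), 0.29 (1 against 1) and 0.39 (1 against 2). Each of these values thus rests on a single liver in at least 1 group. Of 15885 genes, 1.19% were called higher, 0.68% were called lower and 6.95% had groups that did not overlap.

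This call was narrow. The adjusted p of Srxn1 was 0.215 with TMM scaling, 0.243 with no minimum mean and 0.279 with the flow cell as a covariate. When single libraries were left out the call held only without saline replicate 2 (adjusted p = 0.149), and it was lost without LNA29 replicates 1, 2, 3 or 4 and without saline replicates 1, 3 or 4 (adjusted p up to 0.389); the log2 fold change stayed between 0.41 and 0.57.

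**Figure D2:**
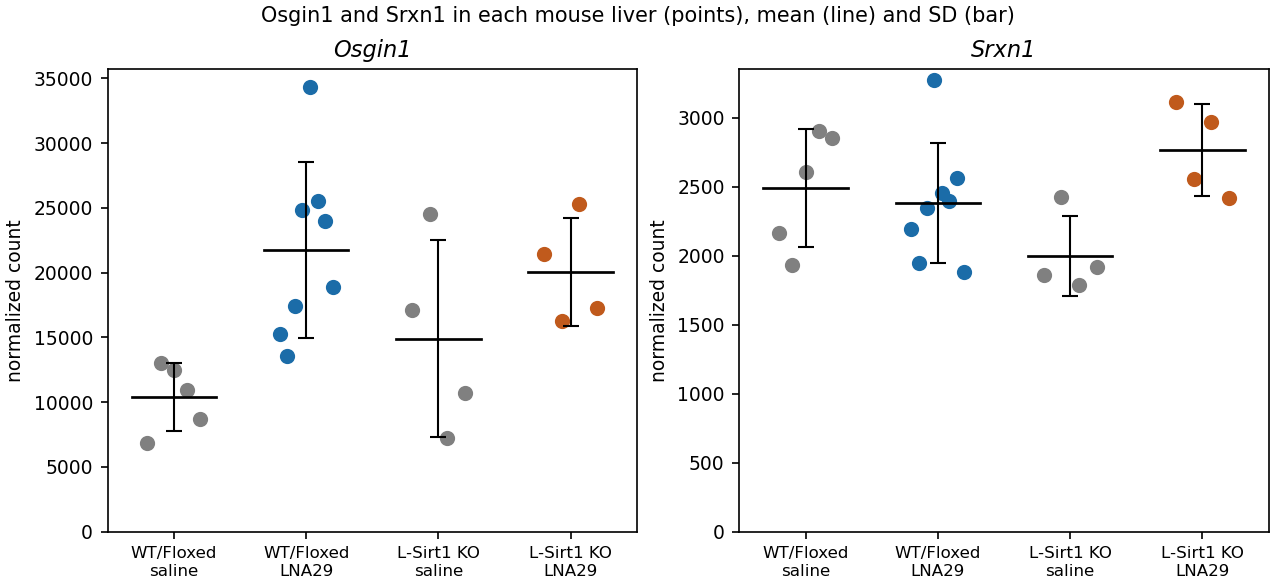
Normalized count (y axis) of Osgin1 (left) and Srxn1 (right) in each mouse liver of the 4 groups (x axis), with the mean as a line and the SD as a bar; the pair of genotypes was scaled in separate tables. Osgin1 of LNA29-treated WT/Floxed livers lies between 13590 and 34320, above all saline-treated WT/Floxed livers, whereas the saline-treated livers labelled L-Sirt1 KO spread from 7272 to 24530.

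Osgin1 was also higher on average in LNA29-treated mice labelled L-Sirt1 KO, at 20060 ± 4143 against 14910 ± 7596, but its groups overlapped and the test was not passed (log2 0.55, interval -0.18 to 1.29, adjusted p = 0.579, limma). LNA29-treated livers had 21440, 16230, 25280 and 17290, and saline-treated livers had 17100, 24530, 7272 and 10730. Of the saline-treated livers, 2 lay below every treated one and 2 within the treated range. Within the flow cells the log2 difference of Osgin1 was 0.13 (2 livers against 1), 0.04 (1 against 1) and 0.97 (1 against 2).

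Nqo1 was at 882 ± 106 with LNA29 and 719 ± 125 with saline (log2 0.30, interval -0.02 to 0.62, adjusted p = 0.48), and Gclc at 19090 ± 3372 and 15980 ± 3105 (log2 0.26, interval -0.09 to 0.62). Hmox1 had 810 ± 107 and 982 ± 89.6, a log2 fold change of -0.28 with an unadjusted p of 0.038 and an adjusted p of 0.41 (limma). Nfe2l2 was at -0.19 (interval -0.47 to 0.09) and Keap1 at -0.10 (interval -0.33 to 0.12). Gclm (0.08), Gsr (0.13) and Txnrd1 (-0.07) differed by less than their SE. The median over the 10 genes was 0.10, against -0.0027 over all genes tested.

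Whether the response to LNA29 differed between genotypes was tested directly as an interaction, which called 7 of 15601 genes (0.0449%) and none of the 10. At an unadjusted p under 0.05 it held 1426 genes, Srxn1 and Nfe2l2 among them. The response of Srxn1 was larger by 0.54 on the log2 scale in the genotype labelled L-Sirt1 KO (adjusted p = 0.40), and that of Nqo1 by 0.39 (interval -0.01 to 0.79, adjusted p = 0.557). That of Nfe2l2 was -0.30 (interval -0.59 to -0.01, adjusted p = 0.521). The difference for Osgin1 was -0.49 with an interval of -1.33 to 0.35 (adjusted p = 0.765, limma). Thus neither the call of Osgin1 nor that of Srxn1 was shown to be particular to a genotype. With sample quality weights, where 1220 genes were called, Nqo1 and Srxn1 were among them.

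Summed levels of cell type markers overlapped between LNA29 and saline in WT/Floxed mice, while single markers moved. The summed level of 7 macrophage markers was 5580 to 28500 with LNA29 and 10000 to 17300 with saline, that of 6 stellate cell markers 7330 to 8860 and 7330 to 9140, and that of 5 cholangiocyte markers 3420 to 6350 and 2870 to 4100, and that of 5 endothelial markers 6860 to 10900 and 8170 to 10800. The 5 hepatocyte markers that matched summed to 5700000 to 7310000 and 4190000 to 7080000. None of the markers in these lists averaged under 10. Of single markers, the hepatocyte gene Apoa1 was called higher with no overlap (log2 0.51, adjusted p = 0.0312) and the endothelial gene Lyve1 lower (-0.51, adjusted p = 0.165, limma). All 5 cholangiocyte markers lay above 0 (median 0.30) and 6 of 7 macrophage markers below 0 (median -0.50), none of them called. In mice labelled L-Sirt1 KO the stellate cell sum was 9190 to 11000 with LNA29 and 8050 to 9010 with saline, so these did not overlap, and the macrophage sum was 9890 to 12400 and 12100 to 14800. Of the 7 macrophage markers 6 lay below 0, 5 had an unadjusted p under 0.05, and Vsig4 (-0.54, adjusted p = 0.0891) and Clec4f (-0.29, adjusted p = 0.19) were called lower with no overlap, as was Lyve1 (-1.17, adjusted p = 0.115, limma). Marco was at 0.71 (adjusted p = 0.587). Their part in the results was not tested. In whole liver, fewer cells of a type and less RNA per cell cannot be told apart.

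Over the 21 mouse livers, after the mean of each group was taken out, 31 of 45 pairs of the 10 genes had a positive Pearson correlation and the median was 0.195. The pairs with the highest r were Gclc with Osgin1 (0.778), Gclc with Txnrd1 (0.733), Srxn1 with Txnrd1 (0.712) and Txnrd1 with Osgin1 (0.673). These livers share 3 flow cells and the scaling of 2 tables, so the values are a description. The genes most like Nqo1, of 12759 with a mean above 50, were Gstm6 (r = 0.803), Thnsl2 (0.787), the drug-metabolizing cytochrome Cyp1a2 (0.78), Wbp1 (0.766) and Cd82 (0.748), none of them among the 10.

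In rats the comparison of ZFR with ZLR asked how the obese, fatty liver differs. Of the 10 genes, 9 were tested and none was called at an adjusted p under 0.05 (limma), while 1.8% of 8633 genes were called higher and 2.46% lower. At an unadjusted p under 0.05 there were 1429 genes, Txnrd1 and Gsr among them. The member closest to a call was Txnrd1, at 170, 149, 129 and 167 in ZFR and 198, 202, 206 and 176 in ZLR. Its groups did not overlap, as was the case for 14.5% of all genes tested. The narrowest gap lay between 169.9 in ZFR and 176.3 in ZLR replicate 4. That ZLR value rested on 16.9 estimated reads, each worth 10.4 normalized counts, so the gap was narrower than 1 read. The log2 fold change was -0.35 (SE 0.13, interval -0.64 to -0.07, adjusted p = 0.193, limma; exact permutation p = 0.0286, the smallest possible), and it was -0.33 and -0.38 within the 2 flow cells. Under the criteria used for mice it would have been called.

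Gsr was at 135 ± 15.7 in ZFR and 103 ± 19.2 in ZLR (log2 0.40, interval 0.03 to 0.76, adjusted p = 0.26, limma). The difference was 0.14 without the 3 libraries under 1 M reads, which leaves 3 ZFR and 2 ZLR. Nqo1 values were 63.6, 43.5, 25.1 and 84 in ZFR and 17.2, 34.6, 52.7 and 10.4 in ZLR. The 2 groups overlapped, and the lowest of these values rested on 1 read and the 52.7 on 5. The log2 fold change of Nqo1 was 1.00 (interval -0.16 to 2.16, adjusted p = 0.376), or 1.297 without the shallow libraries (adjusted p = 0.0871, limma).

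Hmox1 was at 84.5 ± 36.4 in ZFR and 52.7 ± 15.2 in ZLR (log2 0.63, interval -0.09 to 1.35, adjusted p = 0.371). Osgin1 ranged from 77.6 to 317 in ZFR and from 183 to 294 in ZLR (log2 -0.56, interval -1.40 to 0.28), and its sign turned with sample quality weights (0.13). Nfe2l2 (0.09), Keap1 (0.20), Gclc (0.11) and Gclm (-0.24) had intervals that spanned 0, and those of Keap1 and Gclc turned to -0.01 and -0.06 without the shallow libraries. Srxn1 was under the minimum mean of 10: the 3 deep libraries had 70, 57 and 54 estimated reads (2.25, 2.18 and 2.33 normalized counts), and the others 0 to 2 reads. The median over the 9 genes was 0.11, against 0.07 over all genes tested.

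**Figure D3:**
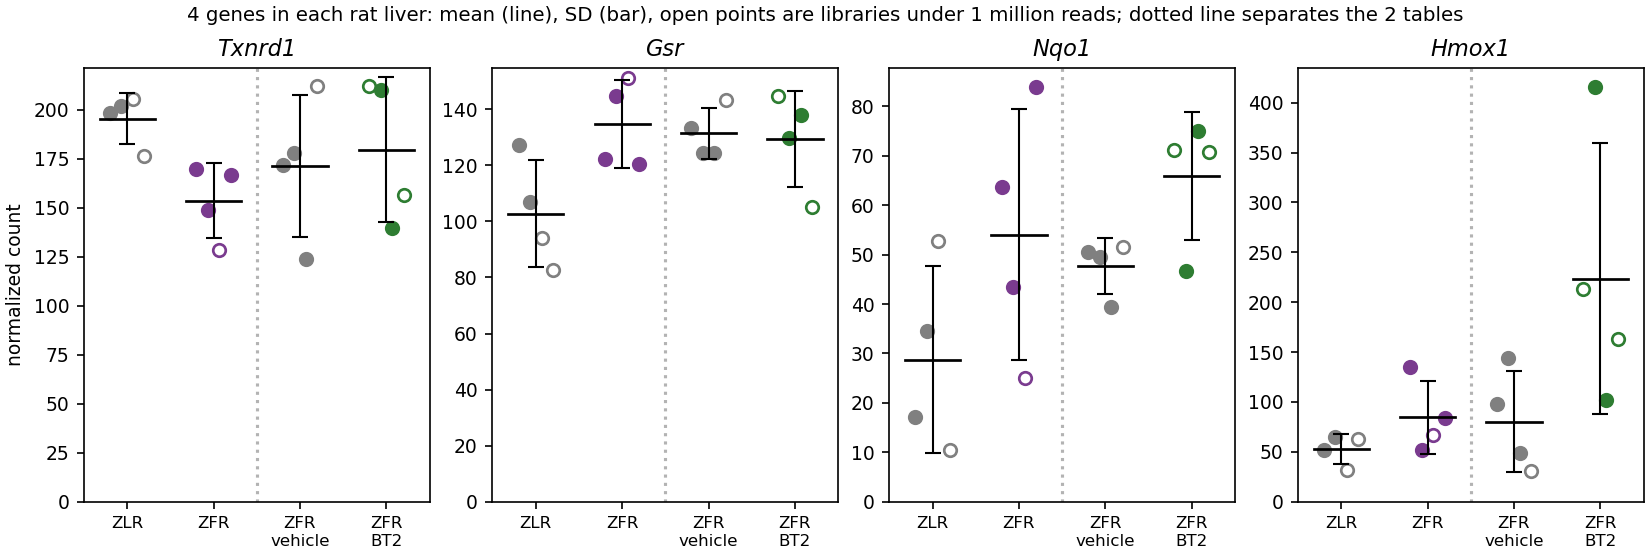
Normalized count (y axis) of Txnrd1, Gsr, Nqo1 and Hmox1 in each rat liver of the 4 groups (x axis), with the mean as a line, the SD as a bar and open points for libraries under 1 M estimated reads. Txnrd1 of ZFR (up to 170) lies below that of ZLR (176 and above), by a gap narrower than 1 read of the shallow ZLR library at 176. Hmox1 of BT2-treated ZFR reaches 415.

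BT2 against vehicle asked what 1 week of the compound does to the fatty liver. No gene of 8405 was called higher (0%) or lower (0%) at an adjusted p under 0.05 (limma), with 332 at an unadjusted p under 0.05, and 2.96% had groups that did not overlap. The largest difference among the 9 genes tested was that of Hmox1, at 213.5, 415, 102 and 163 with BT2 and 98.1, 144, 48.6 and 31.0 with vehicle. Only the lowest BT2 value lay within the range of the vehicle group, and the lowest vehicle value rested on 3 reads. Means were 223 ± 136 and 80.4 ± 51.0 (SD, n = 4 each), a 2.78-fold difference with a log2 fold change of 1.51 (SE 0.50, interval 0.41 to 2.62, unadjusted p = 0.0119, adjusted p = 0.898, limma). The exact permutation p was 0.0571. It was 1.32 and 1.71 within the flow cells, and 1.21 without the 3 libraries under 1 M reads. The 3 red blood cell markers summed to 463 to 854 with BT2 and 343 to 862 with vehicle, and the 7 macrophage markers to 365 to 432 and 376 to 468; their part was not tested.

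Nqo1 was at 71.2, 46.7, 75.0 and 70.7 with BT2 and 50.6, 49.5, 39.4 and 51.6 with vehicle (log2 0.44, interval -0.03 to 0.91, adjusted p = 0.898, limma). Gclc (-0.32), Nfe2l2 (-0.29) and Gclm (-0.29, interval -0.70 to 0.13) were lower on average, and Keap1 (0.16), Txnrd1 (0.07), Gsr (-0.03) and Osgin1 (-0.08, interval -0.82 to 0.67) were near 0. Srxn1 was at 0 to 8 reads in every library and was not tested. The median over the 9 was -0.03, and 0.00612 over all genes.

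Beyond the 10, a list of 39 other genes of the pathway was followed. It held 7 regulators, 8 genes of glutathione and 7 of thioredoxin, peroxide and superoxide. It also held 5 of NADPH supply and the pentose phosphate pathway, 10 of detoxification and efflux, and 2 of iron storage. In WT/Floxed mice 37 were tested, and LNA29 raised 3 and lowered 3, where 2.42% and 1.93% of all genes were called. At an unadjusted p under 0.05 (limma) there were 13 of the 37, in both directions, against 13.31% of all genes tested. Ephx1, the microsomal epoxide hydrolase, rose 1.43-fold (24110 ± 4455 against 16840 ± 2287, log2 0.51, adjusted p = 0.0748). Gss, the glutathione synthetase that acts after Gclc and Gclm, rose 1.41-fold (adjusted p = 0.164) and Blvrb, biliverdin reductase B, 1.33-fold (adjusted p = 0.116, limma). Idh1, a cytosolic NADPH source, fell by 0.33 on the log2 scale (adjusted p = 0.0861), Ftl1, the ferritin light chain, fell by 0.34 (adjusted p = 0.127) and Gsta4, a glutathione transferase for lipid aldehydes, fell by 0.36 (adjusted p = 0.166, limma). The median of the 37 was -0.07.

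These 6 calls were uneven. Ephx1 held when any of the 13 libraries was left out and Idh1 in 12 of 13, whereas Gss held in 4 and Gsta4 in 3. The count fell to 2 without LNA29 replicates 6 or 8 or saline replicate 4, to 3 without LNA29 replicate 7 or saline replicates 1 or 2, and reached 10 without LNA29 replicate 4. It was 0 at an adjusted p under 0.05 and 3 with no minimum mean. In mice labelled L-Sirt1 KO, Ephx1 (log2 0.06), Gss (-0.03), Blvrb (-0.12) and Idh1 (-0.06) were near 0, though no gene of the list was called in the test of the difference, against 7 with sample quality weights (Gss, Blvrb, Idh1 and Gsta4 among them).

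In mice labelled L-Sirt1 KO none of 37 genes of the list was called (limma), with 7 at an unadjusted p under 0.05, as had 11.2% of all genes tested. The log2 fold changes ran from -0.39 for Ftl1 (141500 ± 9676 with LNA29 and 187300 ± 28520 with saline, adjusted p = 0.263) to 0.27 for Mafg (4294 ± 684 and 3587 ± 841, adjusted p = 0.595). Ftl1 was thus lower on average in both genotypes, by a call in WT/Floxed mice only, and a difference between them was not called. Malic enzyme, Me1, which makes cytosolic NADPH, had -0.36 in the WT/Floxed comparison (adjusted p = 0.279) and -0.37 in this one (adjusted p = 0.217). Of the 37 genes, 29 lay below 0, and the median was -0.09. The count was 3 without saline replicate 1 (Abcc2, Bach1 and Nfe2l1) and 1 without saline replicate 4 (Me1).

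In ZFR 30 genes of the list were tested, and 2 were called higher and 2 lower than in ZLR, where 1.8% and 2.46% of all genes were. At an unadjusted p under 0.05 (limma) there were 16 of the 30, in both directions, against 16.55% of all genes tested. Groups did not overlap for 12 of the 30, against 14.5% of all genes. Both genes called higher were among the 4 genes tested of the NADPH and pentose phosphate class. All 4 of this class had groups that did not overlap. Me1, also known as a supplier of NADPH to fatty acid synthesis, was 3.41-fold higher (266 ± 37.1 against 78.0 ± 26.6, log2 1.81, SE 0.22, adjusted p = 0.00202, limma), with 232 to 318.5 in ZFR and 51.9 to 115 in ZLR. Taldo1, transaldolase of the pentose phosphate pathway, was 1.69-fold higher (241 ± 19.3 against 143 ± 33.8, adjusted p = 0.0467). Tkt, transketolase of the same pathway, had a log2 fold change of 0.67 (adjusted p = 0.0557) and Idh1 one of -0.24 (adjusted p = 0.289).

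Both genes called lower break down peroxide. Cat, catalase, fell from 5628 ± 296 in ZLR to 3929 ± 165 in ZFR (log2 -0.52, adjusted p = 0.00491), and Gpx1, glutathione peroxidase, from 2159 ± 469.5 to 1291 ± 156 (log2 -0.72, adjusted p = 0.0312, limma). The 7 thioredoxin, peroxide and superoxide genes were mixed, with 3 above 0 and 4 below; Prdx6 (0.23, adjusted p = 0.229) and Sod2 (0.36, adjusted p = 0.159) were higher on average in ZFR, Txnrd2 (-0.50, adjusted p = 0.192) and Prdx1 (-0.26, adjusted p = 0.213) lower, all 4 without overlap between groups. Cat and Me1 were called when any of the 8 libraries was left out. Gpx1 and Taldo1 each held in 2 of 8, and the count was 2 without any single ZFR library, without ZLR replicate 2 and with TMM scaling, and 1 (Me1) with no minimum mean. The 6 stellate cell markers summed to 175 to 278 in ZFR and 132 to 200 in ZLR, and the 3 red blood cell markers to 394 to 905 and 163 to 485; their part in these differences was not tested.

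With BT2 none of the 30 genes was called, and 1 had an unadjusted p under 0.05 (limma), as had 3.95% of all genes tested. Their log2 fold changes ran from -0.26 for Me1 (adjusted p = 0.901) to 1.62 for Bach1, a repressor of Hmox1 (27.0 ± 13.2 against 12.6 ± 10.3, adjusted p = 0.898, limma). The Bach1 levels lie near the floor, since 1 read was worth up to 10.3 normalized counts in these libraries.

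**Figure D4:**
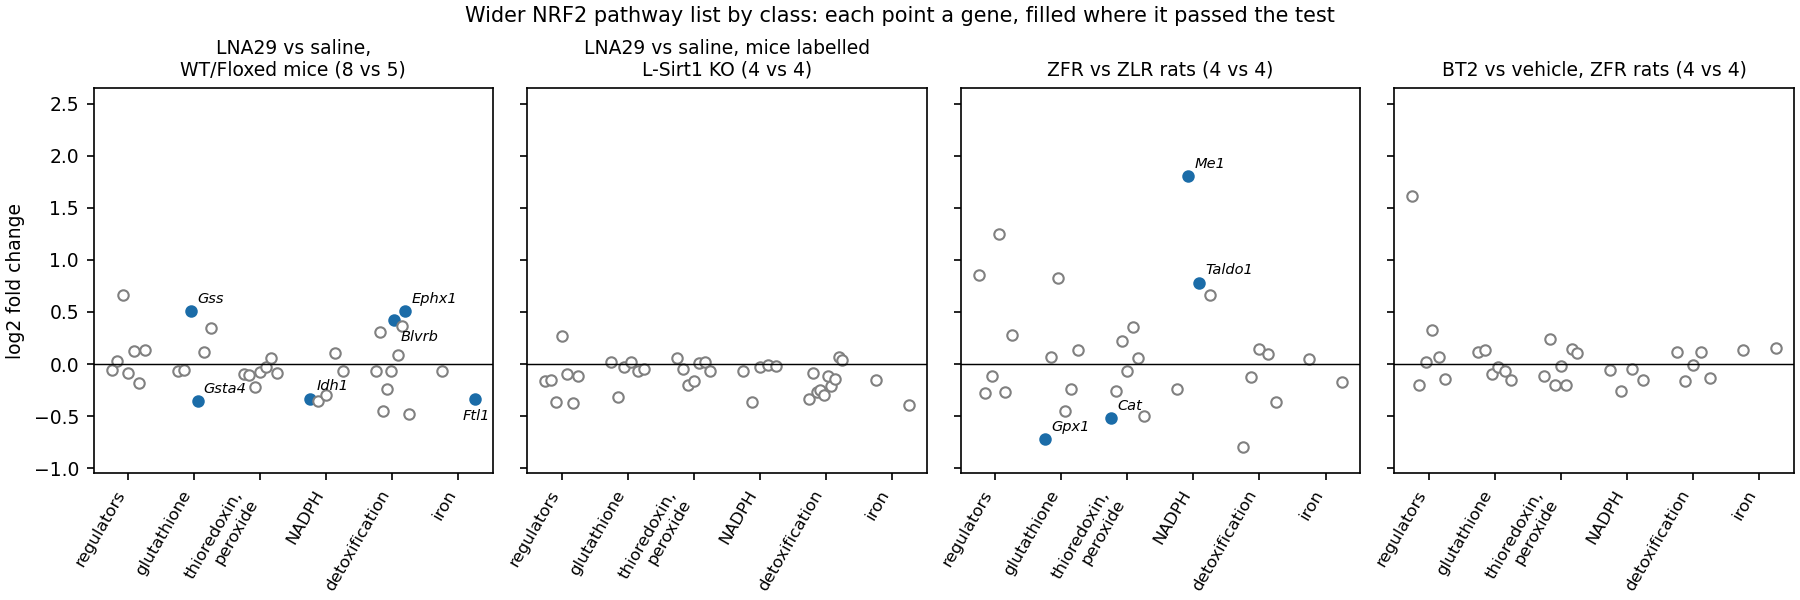
Log2 fold change (y axis) of the tested genes of the wider pathway list by class (x axis) in the 4 comparisons, 1 panel each; every point is a gene, and filled, named points passed the criteria. Me1 of ZFR (1.81) stands highest among the called genes, and called changes in mice stay between -0.36 and 0.51.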

How the data were processed

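RNA-seq libraries (TruSeq polyA+, single-end, 100 bases) of 37 livers were analysed. Per the labels and the study's methods, the authors aligned reads with STAR to mm10 or rn6, estimated gene counts with Salmon and divided them by DESeq2 factors within each of 4 tables, so the deposited values are a signal, not raw counts, and no count model was run. The gene annotation is not given in the sources used here. Every column was matched to a sample (0 left over). Entries with no name (up to 0.0461% of the counts) or a repeated name (up to 2.17%) were left out.

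Depth was estimated as the sum of a library divided by its most frequent value above 0, taken as 1 read (M reads, in units of 1e6). Genes with a mean of at least 10 were tested with limma 3.58.1 in R 4.3.3 (lmFit, eBayes with trend) on log2(value + 1). Benjamini-Hochberg adjustment was made over all of them. The added 1 draws low values together, but a log2 fold change here is a difference of mean log2 values. It can thus be larger than the ratio of means gives, as for Nqo1 in ZFR against ZLR (1.88-fold, log2 1). Mouse calls needed p under 0.05, adjusted p under 0.2, a mean above 50 and a fold above 1.2, rat calls an adjusted p under 0.05, and the interaction an adjusted p under 0.2. Single genes were also compared by exact permutation over libraries. The test was tried on simulated data first.

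Replicates are separate animals by their labels. All 10 members are named; of the wider list, genes called are named, or the largest and smallest change where none was, along with the 5 genes most like Nqo1 and the readouts Sirt1, Col1a1 and Col3a1. Genes named beside these were chosen after their values were seen. Members and lists were chosen with earlier results of these data known. 1 further gene of the wider list was left out of all its counts and is not reported here. Markers named singly were chosen after their values were seen.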

Additional observations from a re-analysis of the deposited data

Results flagged for a closer look

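Among 80 groups of 4 to 8 livers, 6 held a single liver far from the rest (Dixon's test at its 95% critical value); chance alone flags about 1 group in 20. In LNA29-treated WT/Floxed mice, replicate 5 had the lowest Nfe2l2 (3327, nearest 3858) and the highest Keap1 (3938, nearest 3270), and it also had the highest Osgin1 (34320). Without this liver the log2 fold change of Osgin1 was 0.94 (adjusted p = 0.0426, limma). Nqo1 was highest in replicate 1 of the same group (995.8, nearest 793).

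In rats, Keap1 was lowest in ZLR replicate 4 (62.65, which is 6 reads, nearest 83.08), Nqo1 was lowest in BT2 replicate 2 (46.72, nearest 70.7), and Srxn1 was highest in that same liver (2.67, which is 2 reads, the others listed at 0).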

How the results depend on the processing

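The settings changed were the pseudocount (10), the minimum mean (none), the scaling (TMM), library weights, a term for flow cell, background or replicate number, the call limits, the shallow rat libraries and, in turn, every library. Over 928 values of single members under them, 912 kept their side of the limit and none that was called changed sign; 41 uncalled values did.

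In WT/Floxed mice 1 member was called (Osgin1), and 0 with the replicate block (log2 0.97, adjusted p = 0.412; 56 genes called in all). In mice labelled L-Sirt1 KO 1 was called (Srxn1), and 0 with no minimum mean, TMM scaling, the flow cell, the replicate block or an adjusted p under 0.05, and 0 to 1 over the libraries left out. ZFR against ZLR gave 0, and 1 (Txnrd1) under the mouse criteria. The interaction gave 0, and 2 (Nqo1 and Srxn1) with sample quality weights. The cause of these moves was not tested. BT2 gave 0 throughout.

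Counts over all genes moved more. WT/Floxed mice gave 688 calls, and 396 with no minimum mean, 1308 with sample quality weights, 206 at an adjusted p under 0.05 and 381 to 1006 over the libraries left out. Mice labelled L-Sirt1 KO gave 297, and 160, 804, 37 and 77 to 426 in that order, with 103 under the flow cell and 145 under the replicate block. ZFR against ZLR gave 367, and 241 with no minimum mean, 1169 with sample quality weights, 221 under the replicate block, 707 under the mouse criteria and 225 to 379 over the libraries left out. The interaction gave 7, and 1220 with sample quality weights, 19 with the flow cell, 0 under the replicate block or at an adjusted p under 0.05, and 0 to 233 over the libraries left out. BT2 gave 0 to 2.

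Same-numbered livers of a comparison showed little shared deviation: correlations were -0.281 to 0.241 over 5 pairs in WT/Floxed mice, -0.0821 to 0.185 over 4 in mice labelled L-Sirt1 KO, -0.0338 to 0.0302 in ZFR against ZLR and -0.0172 to 0.154 with BT2. The main fits did not treat them as pairs. The numbers do follow the flow cell: in every rat group replicates 1 and 2 shared 1 flow cell, and replicates 3 and 4 another. Depth limits the rat values, some of which rest on 0 to 6 reads.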
